A study of Mus musculus with 24 samples.

Results

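The transcripts described here are 10 genes that mark lymphocytes, measured in RNA from microglia of C9orf72 knock-out mice, their heterozygous counterparts and wild-type mice. The 7 T and NK cell members are Cd3e, Cd3g, Cd8a, Nkg7, Gzma, Ccl5 and Ms4a4b, and the 3 B cell members are Cd79a, Cd79b and Ms4a1. They were taken as a list of symbols, and all 10 were found in both tables of TPM, a measure of transcript abundance scaled for length and depth, out of 20636 genes that the tables share. The rule itself uses no measured value, but the list was drawn up with earlier results of these data known. Each member was followed across genotypes and ages.

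The study profiled bulk RNA of cells pulled from brain with magnetic CD11b beads after the meninges and the myelin had been taken off. CD11b is a surface integrin of microglia and other myeloid cells, and mature mouse NK cells also carry it. The mice were C57BL/6J and formed 6 groups of 4 animals: homozygous C9orf72 (3110043O21Rik) knock-out (HOM), heterozygous knock-out (HET) and wild type (WT), each at 3 and at 17 months. The labels name no other allele and no agent.

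T cells read antigen through a receptor whose signal runs through the CD3 chains, and CD8 holds that receptor on MHC class I. NK cells and cytotoxic T cells kill with granules that hold granzymes, and both release the chemokine CCL5, which also draws other leukocytes. B cells signal through CD79A and CD79B, the paired chains beside their membrane antibody, and carry CD20, the product of Ms4a1. A healthy brain holds few lymphocytes, so in a microglial preparation such RNA is scarce, and age is known to bring more T cells into the mouse brain. In bulk RNA, fewer cells of a type and less RNA per cell cannot be told apart.

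All 10 members are protein-coding genes with the following spans in GENCODE vM21 on GRCm38, the assembly also called mm10. Cd3g lies at chr9:44969572-44980431 and Cd3e close by at chr9:44998740-45009627, both on the minus strand. Cd8a lies at chr6:71373427-71379173, Nkg7 at chr7:43437073-43438249 and Cd79a at chr7:24897381-24902197, all on the plus strand. Gzma lies at chr13:113093825-113100981, Ccl5 at chr11:83525778-83530518 and Cd79b at chr11:106311341-106314762, all on the minus strand. Ms4a4b at chr19:11443553-11467055 on the plus strand and Ms4a1 at chr19:11249675-11266241 on the minus strand stand in the same cluster of Ms4a genes.

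The RefSeq table (GRCm38.p6) held a promoter for 7 of the 10 members. The 250 bases before the RefSeq start are shown for Nkg7 and Gzma, whose levels went together between animals at 3 months, and for Cd79a, the B cell member whose HOM and WT animals did not overlap at 17 months. Capitals mark matches, on either strand, to a RUNX core (TGTGGT), an ETS core (AGGAAG), a T-box core (GGTGTGA) or an E-box (CAGNTG). The windows are chr7:43436888-43437137 on the plus strand, chr13:113100982-113101231 on the minus strand and chr7:24897247-24897496 on the plus strand.
Nkg7: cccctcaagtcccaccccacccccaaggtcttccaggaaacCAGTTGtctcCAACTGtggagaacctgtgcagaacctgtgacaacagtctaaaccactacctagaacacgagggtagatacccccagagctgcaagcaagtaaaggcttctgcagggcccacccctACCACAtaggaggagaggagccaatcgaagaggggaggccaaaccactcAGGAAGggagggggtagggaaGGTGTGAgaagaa
Gzma: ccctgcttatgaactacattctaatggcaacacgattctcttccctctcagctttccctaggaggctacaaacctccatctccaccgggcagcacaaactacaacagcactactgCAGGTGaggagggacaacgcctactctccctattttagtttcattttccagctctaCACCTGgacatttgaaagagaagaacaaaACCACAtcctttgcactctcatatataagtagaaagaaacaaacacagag
Cd79a: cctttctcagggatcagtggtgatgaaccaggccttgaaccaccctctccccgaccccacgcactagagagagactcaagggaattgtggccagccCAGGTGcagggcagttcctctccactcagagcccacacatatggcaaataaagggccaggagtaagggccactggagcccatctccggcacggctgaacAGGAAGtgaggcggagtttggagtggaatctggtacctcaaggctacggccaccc
Nkg7 and Gzma each held 1 RUNX match and 2 E-box matches, and Nkg7 also held 1 ETS and 1 T-box match. Cd79a held 1 ETS match and 1 E-box match. Among the 27025 promoters of the table cut to the same length, 14.2% held the RUNX letters, 29.2% the ETS letters, 3.31% the T-box letters and 44.5% the E-box letters. The CRE letters TGACGTCA were found in none of the 7 members' windows, against 1.62% of all promoters. The matches describe these letters only, and none of those printed overlapped another.

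The 12 libraries of 3 months held 21.8 to 33.8 M alignments and those of 17 months 16.7 to 46.4 M, per the file headers. At 17 months the 4 HOM libraries were the deepest, with 40.7 to 46.4 M alignments. The targeted gene matched the labels: at 3 months it averaged 0.139 ± 0.0918 TPM in HOM, 9.73 ± 1.75 TPM in HET and 22.8 ± 2.23 TPM in WT animals, and at 17 months 0.0360 ± 0.0158, 7.20 ± 1.53 and 14.9 ± 1.48 TPM in that order (SD, n = 4 each). Summed TPM of 8 microglia markers such as Tmem119 and P2ry12 lay between 26038 and 31190 at 3 months and between 15515 and 22895 at 17 months. Sex, read from 4 Y-linked genes, was unequal between genotypes: 2 HOM, 4 HET and 1 WT animals were male at 3 months, and 3 HOM, 0 HET and 1 WT at 17 months. Each age has a table of its own, normalized apart, so levels of both ages are set side by side and not tested against each other.

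No member passed the test in any of the 6 genotype comparisons. The test was limma on log2(TPM + 1), with 12 animals of an age in each fit and a call at a Benjamini-Hochberg adjusted p under 0.05 over all genes. Of the 10 members, 0 were called in HOM against WT at 3 months, where 0.0604% of all genes were called. The counts were also 0 of 10 in HET against WT (0.0432% of all genes) and in HOM against HET (0.0259%) at 3 months. At 17 months they were 0 of 10 in HOM against WT (0.712%), in HET against WT (0.237%) and in HOM against HET (1.86%). The filter, an average of 1 TPM or more, was passed by 5 members at 3 months and by 6 at 17 months, and the others were read from a fit with no filter, where 0.0464%, 0.058%, 0.0174%, 0.0629%, 0% and 1.29% of all genes were called in the same 6 comparisons. At an unadjusted p under 0.05, 2, 1 and 4 members at 3 months and 1, 0 and 0 at 17 months passed in that order. Of all genes in the fit with no filter, 15.2%, 16.9% and 8.99% at 3 months and 16.9%, 9.79% and 12.7% at 17 months passed that mark. With limma's array weights, which give each library a weight from its own scatter, 4 members were called in HET against WT at 3 months, 3 in HOM against HET at 3 months and 1 in HOM against WT at 17 months, in fits that called 30.3%, 26.5% and 15.8% of all genes. Of those 4, Ms4a1 came from the fit with no filter, where array weights called 7.67% of all genes.

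**Figure D1:**
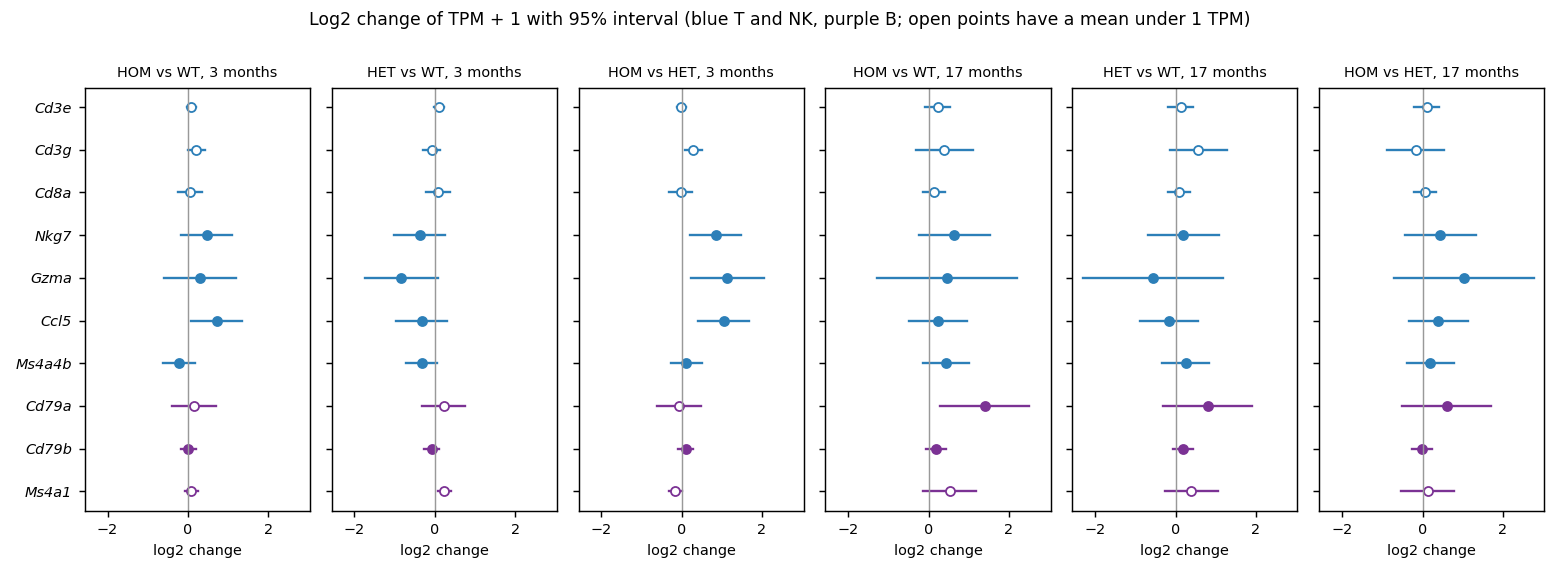
Log2 change of TPM + 1 with its 95% interval for each member in the 6 comparisons, T and NK members in blue and B members in purple. Open points are members with a mean under 1 TPM in that table, and the point farthest to the right is Cd79a in HOM against WT at 17 months, at 1.40.

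The median log2 change over the 7 T and NK members in the fit with no filter was 0.21 in HOM against WT, -0.33 in HET against WT and 0.29 in HOM against HET at 3 months, beside -0.06, -0.03 and -0.01 over all genes. At 17 months it was 0.39, 0.12 and 0.19, beside 0.03, -0.01 and 0.05 over all genes. For the 3 B members the median was 0.08, 0.22 and -0.06 at 3 months and 0.52, 0.39 and 0.13 at 17 months. These comparisons share animals, so the 3 medians of an age are not independent of each other.

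The CD3 chains were at the edge of detection in young animals. Cd3e, the epsilon chain of the T cell receptor complex, had 0, 0.0660, 0 and 0.194 TPM in HOM animals at 3 months and 0, 0.0720, 0.136 and 0.0718 TPM in HET animals, and was listed at 0 in all 4 WT animals. Over the 12 animals it was listed at 0 TPM in 7. In the RPKM tables, which scale reads by gene length and depth, its steps gave 3 reads in HOM-8287, 2 reads in HET-8304 and 0 in the other 10 animals. The groups therefore overlapped at or near 0, and a difference in Cd3e was not detectable at this depth.

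Cd3g, the gamma chain, had 0.280, 0.607, 0.265 and 0.397 TPM in HOM animals at 3 months, 0.104, 0.331, 0.104 and 0 TPM in HET animals and 0.251, 0.283, 0.119 and 0.118 TPM in WT animals. The same RPKM steps gave 0 to 6 reads per animal, the 6 reads in HOM-8285. HOM animals lay mostly above the others, with an overlap against both. The log2 change was 0.21 in HOM against WT (SE 0.10, limma adjusted p = 0.328) and 0.29 in HOM against HET (SE 0.10, limma adjusted p = 0.454). Neither passed the test.

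At 17 months both chains were listed in nearly every animal. Cd3e had 0.248, 0.481, 0.368 and 0.276 TPM in HOM animals, 0.0434, 0.116, 0.188 and 0.773 TPM in HET animals and 0, 0.193, 0.188 and 0.234 TPM in WT animals. HOM and WT animals did not overlap for Cd3e, yet the log2 change of 0.22 (SE 0.14) had a limma adjusted p of 0.486. Cd3g had 0.697, 1.04, 1.41 and 0.303 TPM in HOM animals, 0.799, 0.535, 0.505 and 3.26 TPM in HET animals and 0, 0.666, 0.650 and 0.358 TPM in WT animals. HET-7796 was the highest of the 12 animals for both chains, and WT-7782, the shallowest library of the study at 16.7 M alignments, was listed at 0 for both.

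Cd8a encodes the alpha chain of CD8, found on cytotoxic T cells and some dendritic cells. At 3 months its lowest and highest levels were 0.623 and 0.934 TPM in HOM, 0.425 and 1.05 TPM in HET and 0.422 and 1.02 TPM in WT animals. At 17 months they were 0.602 and 1.14 TPM in HOM, 0.452 and 1.11 TPM in HET and 0.543 and 0.804 TPM in WT animals. The groups overlapped in every comparison. Its TPM and RPKM values did not go together at 3 months: Pearson r over the 12 animals was -0.18, RPKM ran from 0 to 0.0633, and the mean TPM was 31.0 times the mean RPKM. For the other 9 members that ratio was between 2.42 and 4.22 at 3 months. At 17 months the r of Cd8a was 0.80, and its RPKM ran from 0.0228 to 0.252. Its mean TPM was still 7.46 times its mean RPKM at that age, against 1.96 to 2.95 times for the other 9 members. The ratio of HOM to WT means at 17 months was 1.25 in TPM and 3.89 in RPKM (limma adjusted p = 0.641 and 0.153). For HET to WT it was 1.16 and 2.98. The level of Cd8a is therefore uncertain at both ages, and most so at 3 months. Its partner chain Cd8b1 averaged 0.230 ± 0.0666 TPM in HOM, 0.0751 ± 0.0587 TPM in HET and 0.111 ± 0.163 TPM in WT animals at 3 months (SD, n = 4 each).

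The cytotoxic cell members Nkg7, Gzma and Ccl5 gave the largest log2(TPM + 1) changes at 3 months, between HOM and HET animals. By the ratio of means, which this scale compresses for low genes, Ms4a1 in HET against WT (4.48) and Cd3g in HOM against HET (2.87) were higher than Gzma in HOM against HET (2.75), with group means of Ms4a1 and Cd3g under 0.4 TPM. Ccl5, the chemokine, had 48.6, 78.3, 27.1 and 39.8 TPM in HOM animals, 14.1, 17.4, 31.4 and 26.2 TPM in HET animals and 29.8, 27.4, 29.6 and 21.8 TPM in WT animals. HOM averaged 48.4 ± 21.8, HET 22.3 ± 7.95 and WT 27.1 ± 3.72 TPM (SD, n = 4 each). The 3 highest values were those of HOM animals, and the fourth HOM animal lay inside the range of both other genotypes. The log2 change was 1.05 in HOM against HET (SE 0.29, 95% interval 0.42 to 1.68, limma adjusted p = 0.356) and 0.72 in HOM against WT (SE 0.29, limma adjusted p = 0.207).

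Gzma, the granzyme A protease of cytotoxic granules, had 13.2, 18.5, 4.67 and 8.18 TPM in HOM animals at 3 months, 3.46, 3.13, 4.49 and 5.15 TPM in HET animals and 14.2, 5.57, 13.02 and 3.48 TPM in WT animals. HOM and WT animals covered much the same range, and all 4 HET animals lay near its low end. The log2 change was 1.14 in HOM against HET (SE 0.42, limma adjusted p = 0.479), -0.83 in HET against WT (SE 0.42, limma adjusted p = 0.270) and 0.30 in HOM against WT (limma adjusted p = 0.718). Sex and genotype were largely mixed in HET against WT, with 4 male HET animals and 1 male WT animal. That WT male had 3.48 TPM of Gzma, against 5.57 to 14.2 TPM in the 3 WT females.

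Nkg7, a membrane protein of cytotoxic granules, had 5.26, 6.11, 3.39 and 3.81 TPM in HOM animals at 3 months, 1.43, 1.06, 4.30 and 2.42 TPM in HET animals and 4.47, 1.94, 3.92 and 2.26 TPM in WT animals. Only HET-8304 kept the HET group from lying below all HOM animals. The log2 change in HOM against HET was 0.84 (SE 0.29, limma adjusted p = 0.440). Without HOM-8285 it was 0.72 for Nkg7, 0.86 for Gzma and 0.79 for Ccl5. All 4 HET animals of this age were male, against 2 of the HOM animals, and with a sex term the log2 changes in HOM against HET were 0.91, 1.20 and 1.22 for Nkg7, Gzma and Ccl5 (limma adjusted p = 0.456, 0.486 and 0.319).

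**Figure D2:**
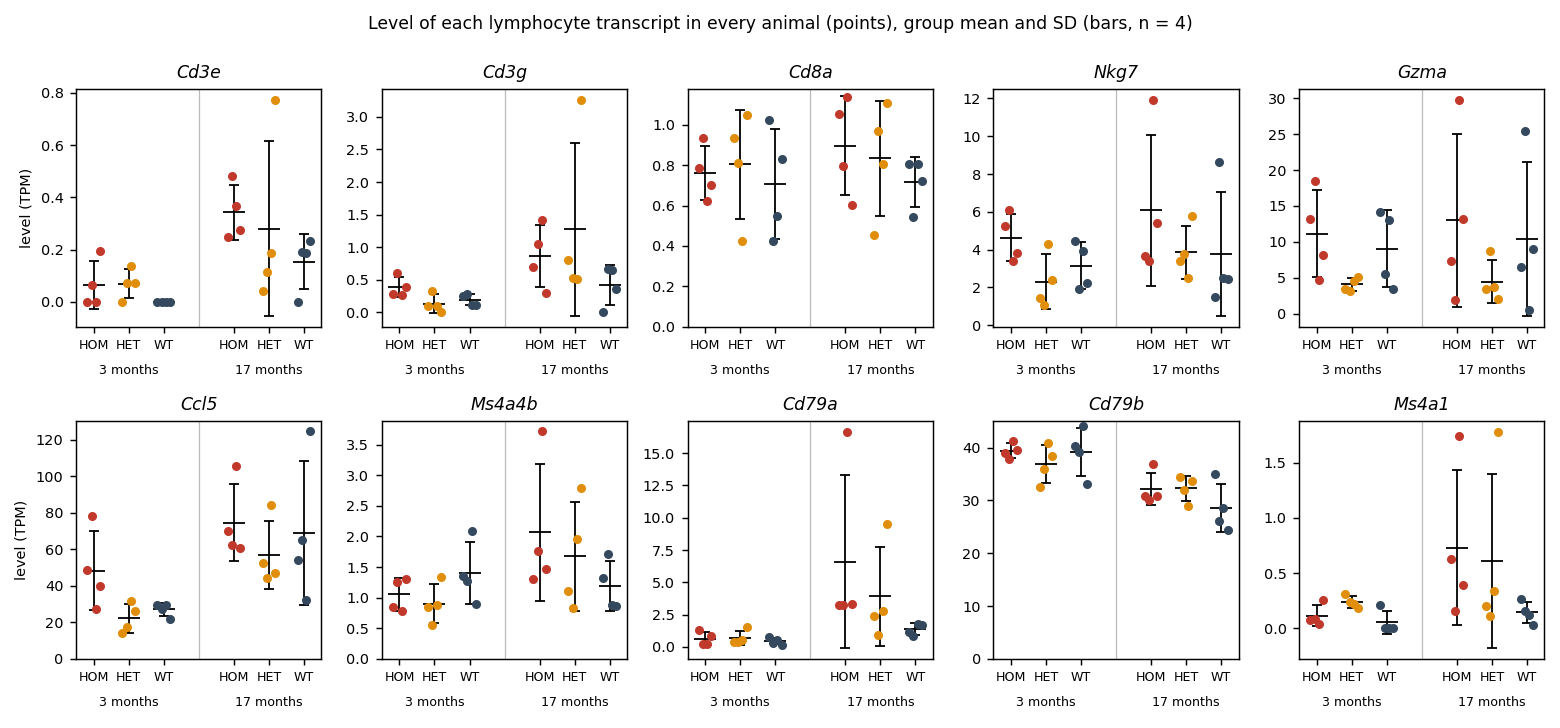
Level in TPM (y axis, linear) of each member in every animal, with group mean and SD (n = 4), where HOM stands left of HET and WT, 3 months left of 17 months. Cd79b lay between 24.5 and 44.0 TPM throughout, whereas a single animal often set the top of the other panels.

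At 17 months the 3 cytotoxic cell members were spread widely inside each genotype. Gzma had 7.26, 1.89, 29.8 and 13.1 TPM in HOM animals, 3.36, 8.78, 3.64 and 2.01 TPM in HET animals and 6.52, 25.5, 0.444 and 8.99 TPM in WT animals. Its highest value was 67.1 times its lowest. Nkg7 had 3.65, 3.37, 11.9 and 5.40 TPM in HOM animals, 3.38, 3.79, 2.47 and 5.80 TPM in HET animals and 1.497, 8.64, 2.48 and 2.46 TPM in WT animals. HOM-7899 was highest and WT-7783 second for both genes. Gzma in HOM against HET had a log2 change of 1.03 with an SE of 0.81 (limma adjusted p = 0.662), and a 95% interval of -0.72 to 2.78. In HOM against WT the log2 change of Gzma was 0.46 with all animals, -0.07 without HOM-7899, -0.32 without WT-7785, 1.08 without WT-7783 and 1.41 with a sex term, so its sign was not settled.

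Ccl5 had 70.1, 62.2, 106 and 60.6 TPM in HOM animals at 17 months, 52.4, 44.4, 84.3 and 46.9 TPM in HET animals and 54.3, 65.3, 32.1 and 125 TPM in WT animals. All 3 genotypes overlapped, and the top value was that of WT-7943, whose Gzma was 8.99 TPM and Nkg7 2.46 TPM. The log2 change was 0.24 in HOM against WT (limma adjusted p = 0.767) and 0.39 in HOM against HET (limma adjusted p = 0.695). Ccl5 made up 70.6% of the mean summed TPM of the T and NK members at 3 months and 79.3% at 17 months. That sum therefore mostly follows Ccl5, and which cells carried the Ccl5 RNA was not tested. Ccl5 was 2.0999 to 6.996 times Gzma at 3 months and 2.56 to 72.3 times Gzma at 17 months.

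Ms4a4b, a membrane protein of T and NK cells, had 0.853, 1.26, 0.789 and 1.31 TPM in HOM animals at 3 months, 0.849, 0.554, 0.877 and 1.33 TPM in HET animals and 1.35, 1.28, 2.09 and 0.890 TPM in WT animals. At 17 months it had 1.31, 1.77, 3.73 and 1.46 TPM in HOM animals, 1.11, 0.832, 1.96 and 2.80 TPM in HET animals and 1.33, 1.72, 0.881 and 0.855 TPM in WT animals. HOM and WT overlapped at both ages. The log2 change in HOM against WT was -0.21 at 3 months and 0.44 at 17 months, and the difference between the ages, tested in a fit of all 24 animals, was 0.65 (SE 0.33, limma adjusted p = 0.256). Ms4a4b passed no test, and its sign was not shown to differ with age.

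Of the B cell members, Cd79a had the largest log2(TPM + 1) change, in HOM against WT at 17 months, with a ratio of means of 4.91, against 5.02 for the scarcer Ms4a1. Cd79a, the alpha chain of the antigen receptor complex, had 3.23, 3.22, 16.7 and 3.30 TPM in HOM animals at 17 months, 2.39, 0.896, 2.80 and 9.52 TPM in HET animals and 1.12, 0.798, 1.76 and 1.70 TPM in WT animals. Every HOM animal lay above every WT animal, and the HET animals ran from the WT range to far above it. HOM averaged 6.60 ± 6.70, HET 3.90 ± 3.84 and WT 1.34 ± 0.465 TPM (SD, n = 4 each). The log2 change in HOM against WT was 1.40 (SE 0.51, 95% interval 0.29 to 2.503, limma adjusted p = 0.167). Without HOM-7899 it was 0.88 (limma adjusted p = 0.421), and with a sex term 1.14 (limma adjusted p = 0.407). Cd79a and Cd3e were the 2 of 10 members whose HOM and WT animals did not overlap at 17 months, beside 11.4% of all genes with a value above 0.

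At 3 months Cd79a had 1.27, 0.218, 0.190 and 0.855 TPM in HOM animals, 0.374, 0.397, 0.524 and 1.502 TPM in HET animals and 0.720, 0.305, 0.512 and 0.169 TPM in WT animals. The genotypes overlapped, with a log2 change of 0.16 in HOM against WT (SE 0.25, limma adjusted p = 0.814). The HOM against WT effect at 17 months minus that at 3 months was 1.24 (SE 0.63, limma adjusted p = 0.291), so the effect was not shown to differ between the ages. In that test 0 of 10 members were called in each of the 3 genotype comparisons, beside 0.254%, 0.691% and 2.03% of all genes in HOM against WT, HET against WT and HOM against HET. Members under the filter were read from a fit with no filter, where 0.171%, 0.507% and 1.1% of all genes were called. At an unadjusted p under 0.05 the count of members was 0 as well. Of all genes 2492, 1647 and 1285 of 11436 passed that mark with the filter, and 3230, 2446 and 2275 of 16977 without it.

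Ms4a1, which encodes CD20, had 0.0800, 0.0866, 0.0378 and 0.255 TPM in HOM animals at 3 months and 0.312, 0.237, 0.223 and 0.189 TPM in HET animals. Of the WT animals 3 were listed at 0 and WT-8322 had 0.215 TPM. The log2 change in HET against WT was 0.24 (SE 0.07, limma adjusted p = 0.142), on levels all under 0.4 TPM. At 17 months Ms4a1 had 0.624, 0.158, 1.74 and 0.389 TPM in HOM animals, 0.199, 0.115, 0.340 and 1.78 TPM in HET animals and 0.267, 0.159, 0.124 and 0.0307 TPM in WT animals. HOM-7899 and HET-7796 were the high animals, as for Cd79a, and the log2 change in HOM against WT was 0.52 (SE 0.30, limma adjusted p = 0.423).

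Cd79b, the beta chain of the same receptor complex, behaved unlike the other B cell members. It had 39.0, 37.9, 41.2 and 39.5 TPM in HOM animals at 3 months, 32.5, 35.9, 40.9 and 38.5 TPM in HET animals and 40.2, 39.3, 44.0 and 33.2 TPM in WT animals. At 17 months it had 30.9, 30.2, 36.8 and 30.8 TPM in HOM animals, 34.4, 32.0, 29.0 and 33.7 TPM in HET animals and 35.0, 26.2, 28.6 and 24.5 TPM in WT animals. The highest animal was 1.36 times the lowest at 3 months and 1.504 times at 17 months, against 8.89 and 20.9 times for Cd79a. The coefficient of variation of Cd79b over the 12 animals was 8.60% and 11.8%, the smallest of the 10 members at both ages.

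Cd79b made up 98.2% of the mean summed TPM of the B members at 3 months and 87.5% at 17 months. It was 25.6 to 217 times Cd79a at 3 months and 2.21 to 35.7 times Cd79a at 17 months, lowest in HOM-7899. Its 95% intervals of the log2 change in HOM against WT were -0.18 to 0.21 at 3 months and -0.08 to 0.42 at 17 months. Mouse microglia are known to carry Cd79b RNA. Without Cd79b the summed level was 7.33 ± 7.38 TPM in HOM, 4.51 ± 4.62 TPM in HET and 1.49 ± 0.412 TPM in WT animals at 17 months, and 0.749 ± 0.568, 0.939 ± 0.503 and 0.480 ± 0.334 TPM at 3 months (SD, n = 4 each).

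**Figure D3:**
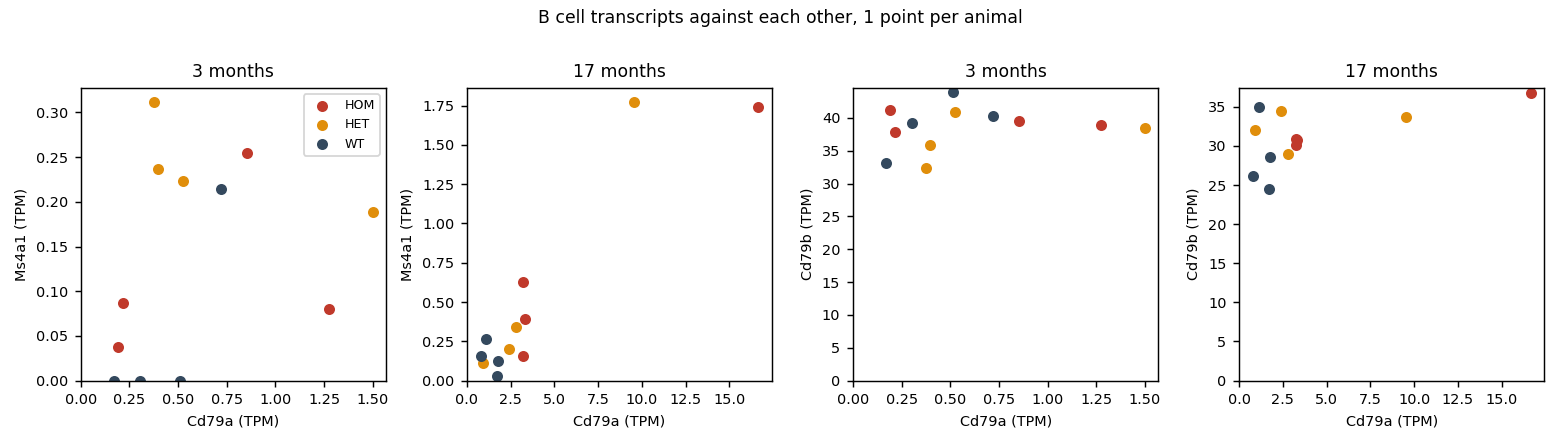
Ms4a1 (left pair) and Cd79b (right pair) against Cd79a, all in TPM, 1 point per animal, by genotype and age. At 17 months HOM-7899 (16.7 TPM of Cd79a) and HET-7796 (9.52 TPM) stand apart for Cd79a and Ms4a1, whereas Cd79b stays between 24.5 and 36.8 TPM.

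Summed over the 7 T and NK members the level was 66.5 ± 29.3 TPM in HOM, 30.6 ± 10.05 TPM in HET and 41.6 ± 10.3 TPM in WT animals at 3 months. At 17 months it was 97.9 ± 37.9, 69.4 ± 16.4 and 85.7 ± 44.1 TPM in the same order. The 3 B members summed to 40.2 ± 1.38, 37.9 ± 3.82 and 39.6 ± 4.69 TPM at 3 months and to 39.5 ± 10.5, 36.8 ± 5.88 and 30.1 ± 4.62 TPM at 17 months (SD, n = 4 each). The T and NK sum thus had its lowest mean in HET animals at both ages, whereas the B sum was nearly level at 3 months and lowest in WT at 17 months. These sums are a description and were given no test.

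Between animals, the cytotoxic cell members went together at 3 months. Over the 12 animals, Pearson r was 0.87 for Nkg7 with Ccl5 (Spearman rho 0.90, permutation p = 0.0001 and 0.0002), 0.82 for Nkg7 with Gzma (rho 0.83, permutation p = 0.0016 and 0.0015) and 0.81 for Gzma with Ccl5 (rho 0.83, permutation p = 0.0003 and 0.0015). Adjusted over the 90 relations of 45 pairs at 2 ages, the permutation p for r was 0.0081, 0.0211 and 0.0153, and for rho 0.0162, 0.0462 and 0.0462. Without the 2 animals farthest from the median of the first gene, r was 0.80, 0.77 and 0.79. On deviations from the genotype means it was 0.78, 0.74 and 0.75, and with RPKM it was 0.88, 0.76 and 0.81. These were the 3 relations of 90 that passed by both measures, and 7, these 3 included, passed by Pearson r.

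At 17 months r was lower for each of these pairs. It was 0.23 for Nkg7 with Ccl5 (rho -0.01) and 0.62 for Nkg7 with Gzma (rho 0.48), and without HOM-7899 and WT-7783 it was -0.18 and 0.10. For Gzma with Ccl5 it was 0.59 (rho 0.56), and 0.20 without WT-7785 and HOM-7899. The difference between the ages was not tested. Cd79a with Ms4a1 had r = 0.91 at 17 months (rho 0.77, permutation p = 0.0005 and 0.0050, adjusted 0.0159 and 0.113), and 0.56 without HOM-7899 and HET-7796, so the relation rests in large part on those 2 animals. The same animals carried the cross-class relations of Ms4a4b with Ms4a1 (r = 0.85, rho 0.73) and with Cd79a (r = 0.84, rho 0.63), which were 0.44 and 0.36 without them. Cd3e with Cd3g had r = 0.83 (rho 0.57), and 0.55 without HET-7796 and HOM-7893. Within classes the median r was 0.21 over the 21 T and NK pairs and 0.26 over the 3 B pairs at 3 months, and 0.45 and 0.60 at 17 months. Pairs of 1 T and NK with 1 B member had a median r of 0.22 and 0.46 at the same ages, on the same libraries.

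**Figure D4:**
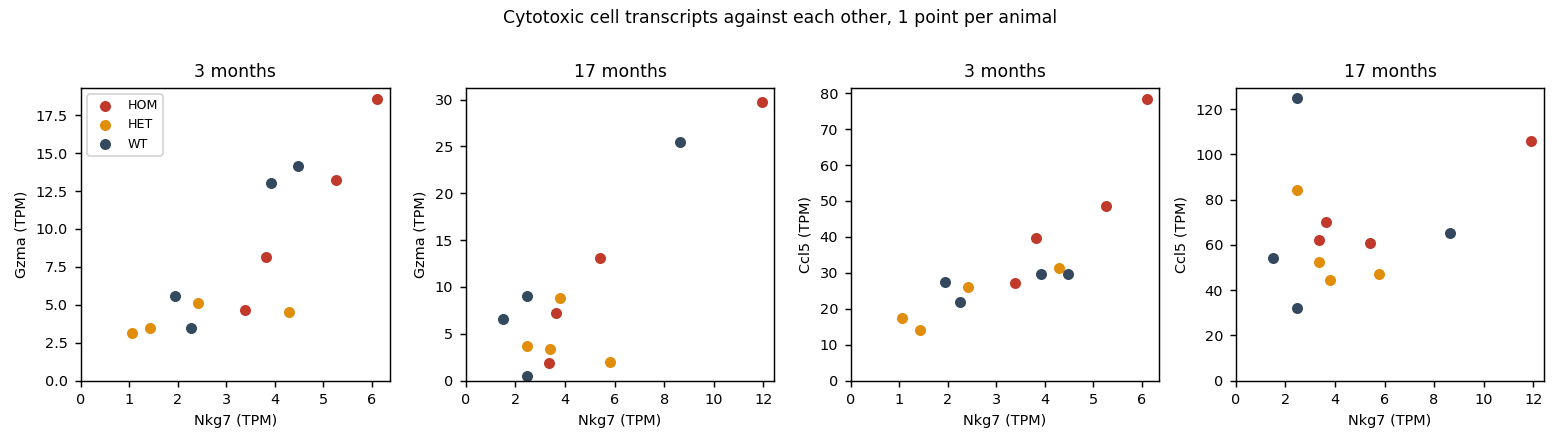
Gzma (left pair) and Ccl5 (right pair) against Nkg7, all in TPM, 1 point per animal, by genotype and age. At 3 months both rise with Nkg7 (r = 0.82 and 0.87), and at 17 months the points scatter, with WT-7943 at 125 TPM of Ccl5.

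A few animals carried most of the high values. At 17 months HOM-7899 was the highest of the 12 animals for 6 members (Cd8a, Nkg7, Gzma, Ms4a4b, Cd79a and Cd79b) and among the top 2 for 9. HET-7796 was highest for Cd3e, Cd3g and Ms4a1 and among the top 2 for 6 members, with a Gzma of 2.01 TPM against 29.8 TPM in HOM-7899. WT-7783 had 25.5 TPM of Gzma with 0.798 TPM of Cd79a, the lowest Cd79a of the age. At 3 months HOM-8285 was highest for Cd3g, Nkg7, Gzma and Ccl5, with 0.218 TPM of Cd79a. T and NK transcripts and B transcripts were thus high in different animals as well as in the same one.

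**Figure D5:**
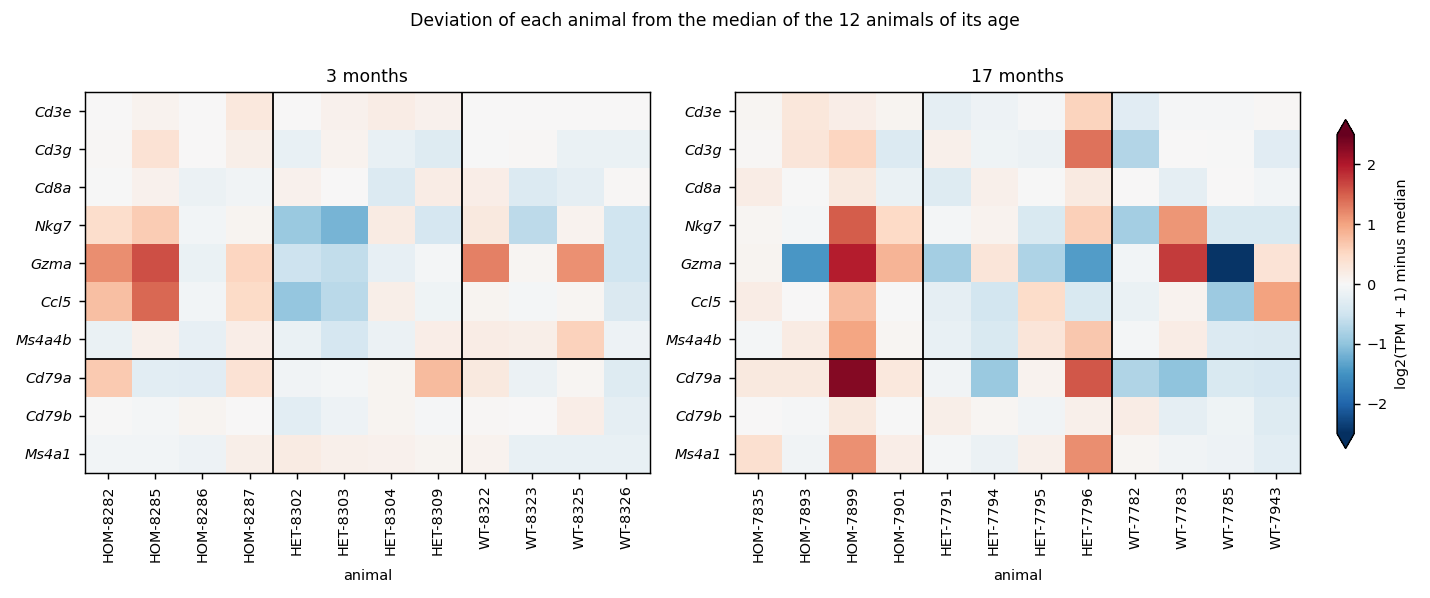
Deviation of log2(TPM + 1) of each member in each animal from the median of the 12 animals of its age, with HOM left of HET and WT. Red is above and blue below that median: HOM-7899 is the reddest column at 17 months, whereas HET-7796 is red for Cd3g and Cd79a and blue for Gzma (2.01 TPM), and the Gzma row runs from deep blue to deep red.

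RNA of other blood, vessel and choroid plexus cells was also high in some of these libraries. HOM-7899 had the highest summed TPM of the 12 animals for monocyte markers (2574), erythrocyte markers (2073) and endothelial and mural markers (543), and HET-7796 the highest for neutrophil markers (11733) with the lowest for microglia markers (15515). HET-8309, the 3-month animal with the highest Cd79a, had the highest neutrophil sum (5474) and the lowest microglia sum (26038) of its age. By genotype, 14 monocyte markers summed to 855 to 2574 TPM in HOM, 450 to 1060 TPM in HET and 444 to 644 TPM in WT animals at 17 months. The 15 neutrophil markers found summed to 2617 to 6498, 907 to 11733 and 741 to 2863 TPM in the same order. The 8 choroid plexus markers summed to 1655 to 4842 TPM in HOM, 1089 to 1519 TPM in HET and 348 to 1598 TPM in WT animals at 17 months, with 1 called and 7 at an unadjusted p under 0.05 in HOM against WT. Of the blood cell lists 0 of 13 monocyte and 0 of 15 neutrophil markers tested were called in any comparison of either age, but many passed an unadjusted p under 0.05 in HOM against WT. There 9 of 15 neutrophil and 7 of 13 monocyte markers passed it at 3 months, beside 19.7% of all genes, and 7 of 15 and 10 of 13 at 17 months, beside 18.6%. The part of these cells in the member values was not tested.

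Other genes of the same cells were read as lists. As a yardstick for their counts at an unadjusted p under 0.05, 19.7%, 21.6% and 8.55% of all genes passed it at 3 months in HOM against WT, HET against WT and HOM against HET, and 18.6%, 9.24% and 13% at 17 months. Of 32 T cell genes found beside the members, 14 were tested at 3 months and 16 at 17 months, and 0 were called in 5 of the 6 comparisons, with 2 to 6 at an unadjusted p under 0.05 over all 6. The highest of these counts, 6, was a larger share of the genes tested than among all genes in any comparison. The genes share the animals, so such counts are not independent. In HOM against HET at 17 months 1 T cell gene was called higher and 1 lower. Lef1, a transcription factor of T cells that endothelial cells also use, averaged 4.50 ± 0.513 TPM in HOM and 2.03 ± 0.269 TPM in HET animals (log2 change 0.86, limma adjusted p = 0.00736). Pdcd1, which encodes the receptor PD-1, averaged 13.7 ± 3.17 TPM in HOM and 24.9 ± 5.20 TPM in HET animals (log2 change -0.82, limma adjusted p = 0.0399). In the same comparison 10 of 12 endothelial and mural markers tested were higher in HOM, and their part in the Lef1 value was not tested. Beside these levels of Pdcd1, Cd3e averaged 0.259 TPM and Cd3g 0.852 TPM over the 12 animals of 17 months. Which cells carried the Pdcd1 RNA was not tested. The delta chain Cd3d averaged 2.23 ± 0.298 TPM in HOM, 1.59 ± 0.545 TPM in HET and 1.54 ± 0.0916 TPM in WT animals at 17 months, and Cd4 averaged 6.55 ± 2.36, 5.04 ± 3.19 and 3.90 ± 2.23 TPM (SD, n = 4 each); neither was called.

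Of 21 NK and cytotoxic cell genes found, 7 were tested at each age and 0 were called in any comparison, with 0 or 1 at an unadjusted p under 0.05. The list's most abundant genes were Id2, a transcription factor also used by other cells, and Klrd1, an NK receptor chain. Gzmb, the granzyme B protease, averaged 2.03 ± 0.994 TPM in HOM, 1.10 ± 0.431 TPM in HET and 1.60 ± 0.885 TPM in WT animals at 3 months, and Prf1, which encodes the pore-forming protein perforin, averaged 1.25 ± 0.568, 0.473 ± 0.124 and 1.22 ± 0.526 TPM (SD, n = 4 each). Both had their lowest mean in HET animals, as Gzma and Nkg7 did, and neither passed the test. The list as a whole did not share this: in HET against WT at 3 months 3 of the 7 tested genes had a positive change. Their median log2 change was -0.02, beside -0.09 over all genes. CD3 zeta, Cd247, averaged 0.283 ± 0.186, 0.141 ± 0.174 and 0.186 ± 0.217 TPM in HOM, HET and WT animals at 3 months.

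Of 18 B and plasma cell genes found, 5 were tested at 3 months and 7 at 17 months, and 0 were called in any comparison, with 1 to 3 at an unadjusted p under 0.05. The highest of these counts, 3, was a larger share of the genes tested than among all genes in any comparison. Cd72 and Cd22, the most abundant genes of the list, averaged 49.2 ± 9.04 and 23.9 ± 2.89 TPM in HOM, 63.8 ± 13.4 and 32.4 ± 4.77 TPM in HET and 43.2 ± 13.8 and 24.9 ± 4.19 TPM in WT animals at 17 months, and microglia are known to carry both. Of 8 genes of B cell precursors, 3 were tested at each age and 0 were called, with 0 or 1 at an unadjusted p under 0.05.

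The receptors and partners of the members gave few calls. Of 17 genes for receptors of the member ligands and for chemokines that attract lymphocytes, Cxcl12 was called at 17 months, in HOM against WT (32.0 ± 9.84 TPM in HOM, 16.2 ± 2.99 TPM in WT, log2 change 0.91, limma adjusted p = 0.0479) and in HOM against HET (9.70 ± 1.36 TPM in HET, log2 change 1.59, limma adjusted p = 0.00158). Cxcl12 is made by endothelial and mural cells. Of 12 of their markers tested, 2 were called higher in HOM against WT and 10 in HOM against HET, and their part in Cxcl12 was not tested. Of 20 genes that interferon gamma, a product of T and NK cells, is known to induce, all were tested and 0 were called in any comparison, with 1 to 5 at an unadjusted p under 0.05, the 5 of 20 in HOM against WT at 17 months beside 18.6% of all genes. Of 26 genes that carry the CD3 and CD79 signal, 21 and 22 were tested at 3 and 17 months and 0 were called, with 0 to 8 at an unadjusted p under 0.05, the 8 of 21 in HOM against WT at 3 months beside 19.7% of all genes. Among 16 Ms4a genes, Ms4a4c, a near relative of Ms4a4b, averaged 7.22 ± 2.08 TPM in HOM, 6.02 ± 0.609 TPM in HET and 3.85 ± 0.374 TPM in WT animals at 3 months (HOM against WT log2 change 0.73, limma adjusted p = 0.0838), and 0 of the family were called, with 0 to 2 at an unadjusted p under 0.05.

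The genes whose levels followed the T and NK members most closely were chosen by the mean, over both ages, of Pearson r with the members' mean z-score across the 12 animals of an age. Among 12367 genes averaging 0.5 TPM or more in both tables, they were Lck (r 0.89 at 3 months and 0.71 at 17 months), Ctsw (0.73 and 0.84), Gimap4 (0.71 and 0.87), Ptprcap (0.71 and 0.84) and Gzmb (0.80 and 0.72). For the B members they were H2afj (0.84 and 0.70), Ethe1 (0.78 and 0.75), Gch1 (0.65 and 0.80), Zfp296 (0.58 and 0.84) and Slfn4 (0.58 and 0.84). Lck, a kinase of the T cell receptor, averaged 1.17 ± 0.389 TPM in HOM, 0.689 ± 0.128 TPM in HET and 0.616 ± 0.0877 TPM in WT animals at 17 months (SD, n = 4 each). All points share the libraries, and the correlations are a description.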

How the data were processed

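RNA of CD11b-selected brain cells was sequenced from 24 mice as single 75-base reads of stranded mRNA libraries, per the labels' protocols. The authors deposited 2 tables per age: TPM summed to genes and RPKM per gene. The submitters' processing notes name Salmon 0.8.2, TopHat2 2.1.1, Partek 7.17.0918, DESeq2 and the genome mm10, without saying which made which table. The deposited TPM values sum to 85.2 to 89.2% of their nominal total at 3 months and 78.9 to 90.7% at 17 months. TPM columns carry animal numbers, and genotypes were read from the same numbers in the RPKM headers, where hemi was taken as HET. A further 3 columns without a name were not used. Raw counts were not used here, so reads were recovered from RPKM steps for Cd3e and Cd3g at 3 months only. Replicates are animals, tied to a group by genotype and age but not to the labels' replicate numbers.

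The fits used limma 3.58.1 in R 4.3.3, with trend, on log2(TPM + 1) of the 12 animals of an age, with genotype means as the design and Benjamini-Hochberg adjustment over genes averaging 1 TPM or more. A fold change on this scale understates the change of low genes. Members under that mean came from a fit of all genes above 0 in any animal. Age differences of a genotype effect came from a fit of all 24 animals. Relations used permutation tests with 100000 resamples in scipy 1.17.1. Fits were tested on simulated data. Alternatives were the pseudocount, the filter, the RPKM tables, quantile and median scaling, a sex term, array weights and leaving out animals. The members and gene lists were chosen with earlier results of these data known. Beside the members, genes of the lists were named where they were called, among the 3 most abundant of their list, or a direct partner or paralog of a member. Some partner genes are not reported here.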

Additional observations from a re-analysis of the deposited data

Results flagged for a closer look

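Among the 60 sets of 4 animals formed by 10 members, 3 genotypes and 2 ages, 7 held an animal whose gap to the nearest of the others passed the critical share of the whole range in a Dixon test at the 95% level, and in all 7 that animal was the high one. For values with a normal spread chance alone marks about 1 set in 20. These were TPM values not put on a log scale, and they cannot fall below 0. That rate need not hold for them, so the count of 7 cannot be set against it. Cd3e in WT animals at 3 months, listed at 0 in all 4, could not be marked. The sets share animals and genes, so they are not independent.

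At 17 months HET-7796 had 3.2606 TPM of Cd3g, against 0.505 to 0.799 TPM in the other HET animals, and 1.77654 TPM of Ms4a1, against 0.115 to 0.340 TPM. HOM-7899 had 16.6506 TPM of Cd79a, against 3.22 to 3.30 TPM in the other HOM animals, and 36.8166 TPM of Cd79b, against 30.2 to 30.9 TPM. WT-7783 had 8.63798 TPM of Nkg7, against 1.497 to 2.48 TPM in the other WT animals. At 3 months HET-8309 had 1.50196 TPM of Cd79a, against 0.374 to 0.524 TPM in the other HET animals. WT-8322 had 0.214505 TPM of Ms4a1, where the other WT animals were listed at 0. With the others at 0 any value above 0 would be marked, so that set says nothing about spread, and 6 of the 7 remain without it.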

How the results depend on the processing

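The count of members called was 0 in all 6 comparisons with pseudocount 0.1, with no filter, with a filter of 0.1 TPM, in the RPKM tables, with quantile or median scaling, with a sex term and when any 1 animal was left out (0 to 0). It was also 0 at 17 months without both HET-7796 and HOM-7899, an alternative chosen after seeing the data. Members too low for a fit's filter were not tested in it. These were Ms4a4b in the RPKM tables and Cd3e at 3 months with the filter of 0.1 TPM. In an RPKM fit with no filter Ms4a4b was not called either, with a lowest limma adjusted p of 0.471. Array weights were the exception to the counts of 0. They called 4 members in HET against WT at 3 months: Nkg7 (log2 change -0.65, limma adjusted p = 0.0353), Ccl5 (-0.82, 0.0219), Cd79b (-0.25, 0.0157) and Ms4a1 (0.29, 0.0487). They called 3 in HOM against HET at 3 months, Nkg7 (0.99, 0.00514), Ccl5 (1.17, 0.00453) and Cd79b (0.27, 0.00997), and 1 in HOM against WT at 17 months, Cd79a (1.64, 0.0313). The weights lay between 0.18 for HET-7796 and 6.02 for HET-8302, and the cause was not tested.

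Of 60 member changes, 32 of 501 values under the other alternatives and 33 of 720 with 1 animal left out changed sign, none of them past the threshold. Without Cd79b the log2 ratio of the summed B members in HOM against WT was 0.64 at 3 months and 2.30 at 17 months, against 0.02 and 0.39 with it. The sum without Cd79b at 17 months ran from 3.38 to 18.4 TPM in HOM and from 0.956 to 1.89 TPM in WT animals. Its top value was that of HOM-7899, and the ratio of 2.30 was not recomputed without that animal.

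The count over all genes was unstable. In HOM against WT at 17 months it was 84, and 11 with no filter, 19 with pseudocount 0.1, 5 with a sex term, 609 with median centring, 633 with quantile scaling, 932 in the RPKM tables, 1858 with array weights, 1 without both animals named above, and 1 (without HOM-7893) to 367 (without HET-7796) with 1 animal left out. In HOM against HET at 17 months it was 219, with 45 under a sex term, 1136 with array weights and 94 without both animals. In HET against WT at 17 months it was 28, with 1 under either scaling, 220 with a sex term, 659 with array weights and 0 to 232 with 1 animal left out. At 3 months the counts were 7, 5 and 3, with 1836, 3507 and 3074 under array weights and at most 103, 467 and 66 with 1 animal left out. No paired analysis was possible because the columns carry animal numbers that the labels do not tie to their replicate numbers. Cd3e and Cd3g at 3 months rested on few reads, at most 3 and 6 per animal. Reads were not recovered for the other members under 1 TPM, and a difference in any of these members may have gone undetected.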
